A study of Homo sapiens with 6 samples.

Results

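The genes described are 9 kinases and regulators of the AKT and mTOR pathway: AKT1, AKT2, PDPK1, MTOR, RPTOR, RICTOR, TSC1, TSC2 and DEPTOR. They were chosen by name, and each was read by 1 probe set of the array, out of 23931 named genes in all. RNA of 6 tumours was hybridised to Affymetrix arrays. The tumours came from Huh7, an established human hepatocellular carcinoma line, injected subcutaneously into nude mice. For 3 tumours (IR-A) the cells carried the plasmid pRcCMVi.hIR-A(GFP), which expresses isoform A of the human insulin receptor, and for the other 3 (control) they carried the empty vector. Both kinds of cells had been transfected stably and selected by G418 resistance and by cytometry for green fluorescence, and the plasmid's name points to a CMV promoter. The labels give neither the age of the mice nor the number of clones, and the mouse and the culture behind each tumour are not stated. The p-values therefore reflect the variation among these samples alone, and part of it may be technical.

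As background, the activated insulin receptor raises the membrane lipid that recruits AKT, and PDPK1, a kinase bound to the same lipid, then phosphorylates AKT1 and AKT2. AKT inactivates the complex of TSC1 and TSC2, which otherwise holds the small GTPase RHEB off, and RHEB activates mTORC1, the complex of the kinase MTOR with its scaffold RPTOR that drives protein synthesis and growth. MTOR with the scaffold RICTOR forms mTORC2, which adds a further phosphate to AKT, and DEPTOR binds MTOR in both complexes and restrains it. In the liver this pathway carries the metabolic response to insulin. It is controlled mainly by phosphorylation, which arrays of RNA do not read.

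All values are log2 signals, so that a difference of 1 means a doubling, and a positive difference means a higher mean in IR-A than in control tumours. Standard errors (SE) and 95% intervals are those of limma. Adjusted p is limma's p after Benjamini-Hochberg adjustment over all 24726 probe sets, with a threshold of 0.05. INSR, the gene of the overexpressed receptor, read 8.04, 7.61 and 8.47 in control and 10.65, 11.31 and 11.01 in IR-A tumours, which matches the labels. Among all probe sets, 0% passed the adjusted threshold, while 14.1% had an unadjusted p under 0.05. Control tumour 2 stood apart, with a mean correlation across probe sets of 0.982 with the other controls and 0.987 with the IR-A tumours. All 9 hepatoma markers named here, albumin and AFP among them, were above the median signal of 4.70, with list means of 11.85 to 12.08 in control and 12.14 to 12.21 in IR-A tumours. Of these 9, 7 had differences above 0 and 2 below. In 4 of the 9 the groups did not overlap, all higher in IR-A tumours, against 7.73% of all probe sets. Markers of host cells were read only through human probe sets. Means of the 6 fibroblast markers were 4.28 to 4.52 in control and 4.78 to 4.97 in IR-A tumours. Of these, 5 had differences above 0 and 1 below. The groups did not overlap in 3 of the 6, all higher in IR-A tumours, against 7.73% of all probe sets. LUM had a difference of 1.26, COL1A2 0.83 and COL1A1 0.40, while DCN lay near the bottom of the scale at 2.56 to 2.58. Means of the 5 endothelial markers were 3.91 to 4.01 in control and 4.0 to 4.06 in IR-A tumours. Of these 5, 2 had differences above 0 and 3 below. The groups did not overlap in 1 of the 5, PECAM1, which was higher in IR-A tumours, against the same 7.73%. Means of the 6 macrophage and leukocyte markers were 4.54 to 4.78 in control and 4.62 to 4.71 in IR-A tumours. Of these 6, 5 were dimmer than the median signal, and 2 had differences above 0 and 4 below. Only CD68 did not overlap between the groups, 1 of 6 against 7.73% of all probe sets with higher values in IR-A tumours. CD68 read 9.94 to 10.70 in control and 10.73 to 11.13 in IR-A tumours. The part of host cells in the results was not tested. In whole tumours, fewer cells of a type and less RNA per cell cannot be told apart.

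None of the 9 genes passed limma's test between IR-A and control tumours. Their differences ran from -0.28 for RPTOR to 0.28 for RICTOR, with a median of 0.02, against a median of -0.03 over all probe sets. Of the 9, 6 lay above 0 and 3 below, and 5 were within 0.1 of 0. The adjusted p values of limma ran from 0.453 to 0.994, and 0 of 9 had an unadjusted p under 0.05. The groups did not overlap in 1 of 9, PDPK1, against 17.2% of all probe sets, 7.73% with higher and 9.45% with lower values in IR-A tumours. All 9 were brighter than at least 74.7% of probe sets. The 95% intervals of the 9 genes together reached from 0.546-fold to 2.02-fold, both bounds set by DEPTOR, so they do not show that the genes were equal.

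**Figure D1:**
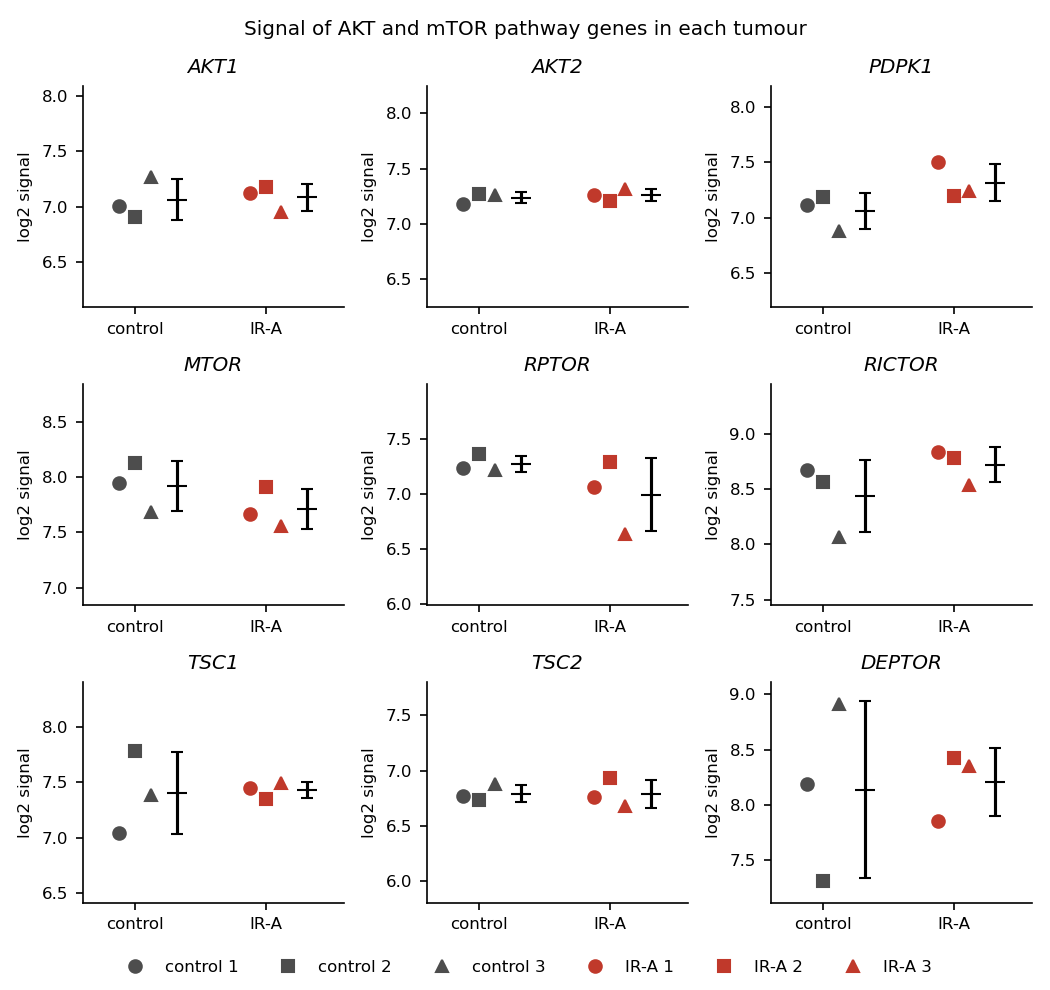
Log2 signal (vertical axis, 2 units tall in each panel) of the 9 genes in 3 control (grey) and 3 IR-A (red) tumours, with symbols for tumours 1, 2 and 3 and a bar for mean ± SD. The groups overlap in every panel but that of PDPK1, and DEPTOR has the widest spread, from 7.32 to 8.92 among controls.

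PDPK1, the kinase that phosphorylates the activation loop of AKT, read 7.11, 7.18 and 6.88 in control and 7.50, 7.20 and 7.24 in IR-A tumours. All IR-A values lay above all control values, but the gap between IR-A tumour 2 and control tumour 2 was narrow. The difference was 0.26 with SE 0.13 and a 95% interval from -0.06 to 0.57, and limma's adjusted p was 0.453. The exact two-sided permutation test gave p = 0.1, the smallest value that 3 against 3 tumours allow. The difference was 0.16 without control tumour 3 and also 0.16 without IR-A tumour 1. PDPK1 has a neighbouring pseudogene, PDPK2P, in the RefSeq table, and whether the probe set separates the 2 was not checked, so the source of its signal is uncertain.

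The AKT genes had differences near 0. AKT1 read 7.004, 6.91 and 7.27 in control and 7.12, 7.18 and 6.95 in IR-A tumours. The IR-A values lay inside the control range, with a difference of 0.02 (SE 0.13) and an interval from 0.822-fold to 1.26-fold. AKT2, the form that carries most of insulin's metabolic signal in liver, read 7.18, 7.27 and 7.26 in control and 7.26, 7.21 and 7.31 in IR-A tumours. Its 6 values spanned only 0.13, and its SD over the tumours of 0.05 was at the 2.92 percentile of all probe sets. The AKT2 difference was 0.02 (SE 0.09) with an interval from 0.883-fold to 1.17-fold, the narrowest of the 9. The limma adjusted p was 0.965 for AKT1 and 0.935 for AKT2. The sign of the AKT1 difference was opposite (-0.05) without control tumour 2, and quantile normalization turned both signs, to -0.0094 for AKT1 and -0.012 for AKT2.

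MTOR, the kinase of both complexes, read 7.95, 8.12 and 7.68 in control and 7.67, 7.91 and 7.56 in IR-A tumours. The ranges overlapped between 7.68 and 7.91, and the difference was -0.21 (SE 0.15, limma adjusted p = 0.615). It was -0.10 without control tumour 2, -0.13 without IR-A tumour 3 and, leaving out control tumour 3, -0.32. RPTOR, the scaffold that presents substrates to mTORC1, read 7.23, 7.36 and 7.22 in control and 7.06, 7.29 and 6.63 in IR-A tumours. The controls were close together, with an SD of 0.08, while the IR-A tumours had an SD of 0.33 and IR-A tumour 3 was the lowest of all. The RPTOR difference was -0.28 (SE 0.17, limma adjusted p = 0.548), and leaving out IR-A tumour 3 gave -0.10 and leaving out IR-A tumour 2 gave -0.42.

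RICTOR, the scaffold of mTORC2, read 8.67, 8.57 and 8.07 in control and 8.84, 8.78 and 8.54 in IR-A tumours. Control tumour 3 was the lowest by far, and IR-A tumours 1 and 2 lay above every control. The difference was 0.28 (SE 0.18) with an interval from -0.15 to 0.72 and a limma adjusted p of 0.554. Without control tumour 3 it was 0.10. RICTOR and RPTOR thus had the largest differences of the 9 genes, with opposite signs.

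**Figure D2:**
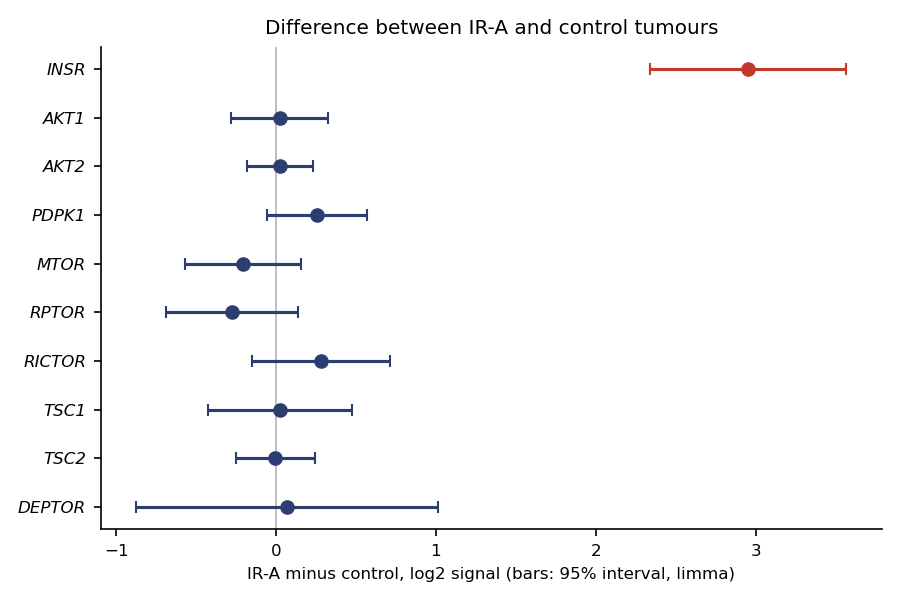
Difference between IR-A and control tumours (horizontal axis, log2 signal) for INSR (red) and the 9 genes (blue), with limma's 95% interval as a bar. INSR lies at 2.95, and all 9 intervals of the pathway genes include 0.

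Whether paired genes moved unequally was tested on the difference of their signals within each tumour, which cancels what the pair shares on an array, in 3 pairs. RICTOR minus RPTOR was 1.44, 1.21 and 0.85 in control and 1.78, 1.49 and 1.91 in IR-A tumours. Every IR-A value lay above every control value, although IR-A tumour 2 and control tumour 1 were only a short way apart. Control tumours had a mean of 1.17 ± 0.30 (SD, n = 3) and IR-A tumours of 1.73 ± 0.21 (SD, n = 3), a shift of 0.56 (SE 0.21, here from the SDs of both groups) or 1.47-fold. The exact two-sided permutation test gave p = 0.1, the smallest this test can give for 3 against 3 tumours, and 0.3 after adjustment over the 3 pairs, so the shift did not pass. The shift stayed between 0.40 and 0.70 with 1 tumour left out.

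The other pairs had shifts smaller than their SE. AKT2 minus AKT1 was 0.18 ± 0.18 (SD, n = 3) among controls and 0.18 ± 0.17 (SD, n = 3) with IR-A, a shift of 0.0026 (SE 0.14, exact permutation p = 0.9). TSC1 minus TSC2 was 0.61 ± 0.40 (SD, n = 3) among controls and 0.64 ± 0.21 (SD, n = 3) with IR-A, a shift of 0.03 (SE 0.26, exact permutation p = 1.0). Both overlapped between the groups.

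**Figure D3:**
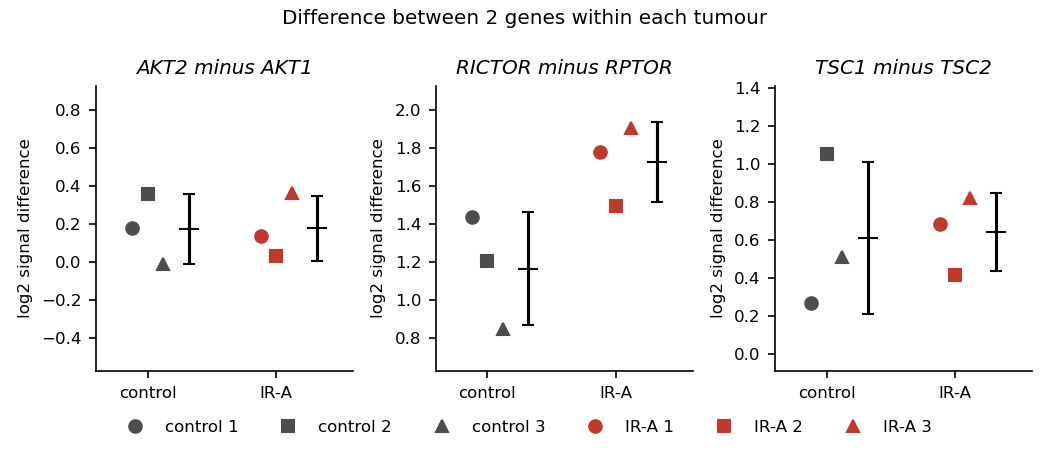
Difference of log2 signal between 2 genes in the same tumour (vertical axis) for the 3 pairs, in 3 control (grey) and 3 IR-A (red) tumours, with mean ± SD as bars. For RICTOR minus RPTOR the control tumours lie at 0.85 to 1.44 and the IR-A tumours at 1.49 to 1.91, while the other pairs overlap.

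RICTOR and RPTOR were the only pair of the 3 without overlap, although the shift did not pass. Among single probe sets, 17.2% did not overlap. The sequences around the starts of RICTOR and RPTOR are shown as a description. Each runs 5′ to 3′ from 250 bases before to 50 bases after the RefSeq start (GRCh38.p14), with matches to the 5 motifs searched in capitals: the GC box, the CCAAT box, the TATA box, the E-box and the forkhead motif. RICTOR lies at chr5:39074350-39074649 on the minus strand and RPTOR at chr17:80544588-80544887 on the plus strand.
RICTOR: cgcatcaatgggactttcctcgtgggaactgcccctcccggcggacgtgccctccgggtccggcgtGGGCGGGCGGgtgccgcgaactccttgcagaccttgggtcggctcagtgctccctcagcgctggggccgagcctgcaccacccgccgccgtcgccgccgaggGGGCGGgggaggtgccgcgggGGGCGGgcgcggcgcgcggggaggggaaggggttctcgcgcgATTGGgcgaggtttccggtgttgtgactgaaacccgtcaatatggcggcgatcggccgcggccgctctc
RPTOR: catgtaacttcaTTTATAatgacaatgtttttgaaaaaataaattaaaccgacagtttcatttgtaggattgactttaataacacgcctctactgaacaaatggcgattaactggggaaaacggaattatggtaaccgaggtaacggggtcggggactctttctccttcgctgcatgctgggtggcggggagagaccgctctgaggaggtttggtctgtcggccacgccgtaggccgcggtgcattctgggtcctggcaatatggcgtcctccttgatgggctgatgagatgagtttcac
The RICTOR window is 74.0% G or C with 42 CpG, and the RPTOR window 48.0% with 16 CpG, against medians of 58.7% and 14 over 35116 windows of the same length. RICTOR holds 4 matches to the GC box (GGGCGG on either strand, overlapping matches counted) and 1 to the CCAAT box (CCAAT). RPTOR holds neither and has 1 match to TATAAA, near the far end of the window from the start. Windows were listed for 8 of the 9 genes, all but DEPTOR, and where a gene had several the first listed was taken. GGGCGG was present in 7 of 8, all but RPTOR, against 45.0% of all windows, CCAAT in 3 of 8 against 34.6%, and TATAAA in 1 of 8 against 11.5%. The E-box CACGTG was in 1 of 8, TSC2, against 7.26%, and the forkhead motif GTAAACA in 0 of 8 against 3.42%. A match describes letters and is not evidence of binding.

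TSC1 and TSC2, the stabilising and the GTPase-activating subunit of the TSC complex, had group means that differed by 0.03 or less. TSC1 read 7.04, 7.78 and 7.39 in control and 7.45, 7.35 and 7.50 in IR-A tumours. The SD was 0.37 among controls and 0.07 among IR-A tumours, which all lay inside the control range. The TSC1 difference of 0.03 (SE 0.19, limma adjusted p = 0.972) was -0.15 without control tumour 1 and 0.22 without control tumour 2. TSC2 read 6.77, 6.73 and 6.88 in control and 6.76, 6.93 and 6.68 in IR-A tumours. Its difference of -0.0034 (SE 0.10, limma adjusted p = 0.994) was the smallest of the 9 in size and had an interval from 0.839-fold to 1.19-fold. Centring each array on its median turned its sign, to 0.012.

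DEPTOR, the inhibitor bound to MTOR in both complexes, varied most. It read 8.19, 7.32 and 8.92 in control and 7.86, 8.42 and 8.36 in IR-A tumours. Control tumour 2 was the lowest and control tumour 3 the highest of all 6, with the IR-A tumours between them. Its SD over the 6 tumours was 0.54, at the 95.3 percentile of all probe sets, while its difference between groups was 0.07 with SE 0.39 and a limma adjusted p of 0.963. The interval reached from 0.546-fold to 2.02-fold, the widest of the 9. The difference was -0.34 without control tumour 2 and 0.46 without control tumour 3.

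No tumour was extreme for all genes. Control tumour 2 held the highest value of 3 genes (MTOR, RPTOR and TSC1) and the lowest of 2 (AKT1 and DEPTOR), control tumour 3 the highest of 2 (AKT1 and DEPTOR) and the lowest of 2 (PDPK1 and RICTOR), and IR-A tumour 3 the lowest of 3 (MTOR, RPTOR and TSC2).

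The genes whose pattern over the 6 tumours was nearest were sought for DEPTOR and RICTOR, the 2 with the largest SD, by the root mean square distance after each gene was centred on its own mean, among 11955 genes with a mean above the median signal. For DEPTOR they were ALDOC, a glycolytic aldolase (distance 0.122), DDIT4, a stress-induced inhibitor of mTORC1 (0.133), and GCNT1, a glycosyltransferase (0.151). DDIT4 read 7.49, 6.37 and 8.01 in control and 7.09, 7.49 and 7.24 in IR-A tumours. Like DEPTOR, it was lowest in control tumour 2 and highest in control tumour 3. For RICTOR the nearest were PPP1R9A, an actin-binding scaffold (0.042), the zinc finger gene ZNF704 (0.043) and TASOR, a subunit of a silencing complex (0.053). They were picked for this likeness, which is a description of 6 samples.

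**Figure D4:**
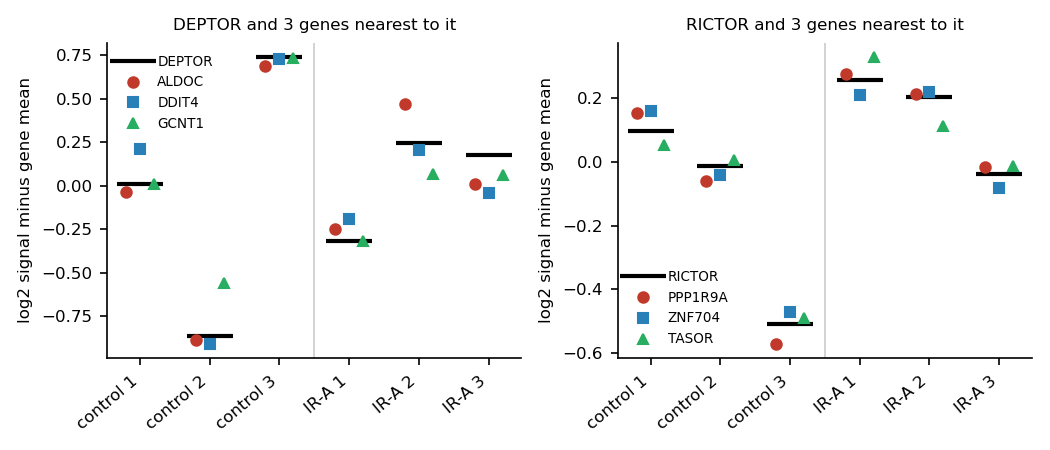
Log2 signal minus the gene's own mean (vertical axis) in each of the 6 tumours for DEPTOR and RICTOR (black bars) and the 3 genes nearest to each (coloured points). All 4 genes of the DEPTOR panel are lowest in control 2 and highest in control 3, and all 4 of the RICTOR panel are lowest in control 3.

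Around the 9 genes, 98 genes in 7 lists describe the rest of the pathway, of which 91 had a named probe set. The lists were chosen by textbook role with earlier results of these data known. Their shares beside those of all probe sets are therefore no independent test. By limma 0 of 91 passed the adjusted threshold (lowest adjusted p = 0.147). At an unadjusted p under 0.05 there were 8 higher and 9 lower, together 18.7% against 14.1% of all probe sets. The groups did not overlap in 10 higher and 11 lower, together 23.1% against 17.2%. The median difference was 0.0012. Of each list the 3 genes of smallest p are given, so their values are selected.

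The complexes' other subunits had 0 higher and 2 lower of 8 at an unadjusted p under 0.05 (median -0.0026), against 7.1% higher and 7.03% lower over all probe sets. TTI1, a cofactor that stabilises MTOR and related kinases, read 8.88, 8.98 and 8.70 in control and 8.30, 8.08 and 8.39 in IR-A tumours, a difference of -0.59 (SE 0.12, limma adjusted p = 0.155). All IR-A values were below all control values. MLST8, a subunit of both mTORC1 and mTORC2, had a difference of -0.26 (SE 0.09, limma adjusted p = 0.276), also without overlap. AKT1S1, an inhibitory subunit of mTORC1 that AKT phosphorylates, had 0.22 (SE 0.12). The count of 2 lower was 1 without control tumour 1 or 3 or without IR-A tumour 1 or 3, and also 1 with the replicate number as a block, with an intensity trend and once the dimmest 50% had been left out. A count of 1 higher appeared without control tumour 2 and with array weights.

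The list of other PDPK1 targets and of brakes on AKT had 2 higher and 0 lower of 10 at an unadjusted p under 0.05 (median 0.02), against the same 7.1% and 7.03%. SGK2, a PDPK1-dependent kinase related to AKT, read 4.71, 5.93 and 4.65 in control and 7.13, 6.68 and 6.47 in IR-A tumours. Control tumour 2 lay between its group and the IR-A tumours. The SGK2 difference of 1.66 (SE 0.37, limma adjusted p = 0.159) was the largest of the 91 genes. Without control tumour 2 it was 2.08 with a limma adjusted p of 0.0261. In that fit 308 of all probe sets passed, against 0 with all 6 tumours, so the pass was not particular to SGK2. INPP5D, a lipid phosphatase best known from blood cells, had 0.87 (SE 0.26), and TRIB3, a pseudokinase that binds AKT, had -0.22 (SE 0.13), or -0.33 without control tumour 2 and -0.10 without control tumour 3. The count of 2 higher was 1 without IR-A tumour 1, and there was 1 lower without control tumour 2.

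RHEB, the GTPase that TSC2 switches off, read 4.85, 4.88 and 4.83 in control and 5.29, 4.89 and 5.27 in IR-A tumours. The groups did not overlap, but IR-A tumour 2 was level with the controls, and the difference was 0.29 (SE 0.13, limma adjusted p = 0.380). Its relative RHEBL1, a dim probe set, had -0.23 (SE 0.10) and TBC1D7, the third subunit of the TSC complex, 0.01 (SE 0.23). Against 7.1% higher and 7.03% lower over all probe sets at an unadjusted p under 0.05, the list count was 0 of 3 either way. It was 1 higher without IR-A tumour 2, 1 lower without control tumour 2 or with an intensity trend, and 1 each way with array weights. The TBC1D7 difference ranged from -0.11 to 0.24 with 1 tumour left out, and was -0.03 with quantile normalization.

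Over all probe sets 7.1% were higher and 7.03% lower at an unadjusted p under 0.05. Of 12 AKT substrates, 0 were higher or lower by this measure (median -0.07). There was 1 each way without IR-A tumour 2 or with array weights, and 1 lower without control tumour 3. The glycolytic regulator PFKFB2 had 0.50 (SE 0.22), TBC1D4, which controls glucose transporter traffic, -0.43 (SE 0.20), and the transcription factor FOXO3 -0.30 (SE 0.17). Without control tumour 1, PFKFB2 had 0.30 and TBC1D4 -0.23, and FOXO3 had -0.16 without control tumour 3 and -0.19 without IR-A tumour 3. The energy and stress inputs to TSC had 0 of 10 in either direction (median 0.03), against the same shares over all probe sets. Among them were the AMPK subunits PRKAB2 at 0.52 (SE 0.22), PRKAG2 at 0.23 (SE 0.13) and PRKAG1 at 0.16 (SE 0.17). There was 1 higher without control tumour 2 or with array weights. PRKAB2 had 0.29 without control tumour 1 and PRKAG2 had 0.11 without IR-A tumour 1. PRKAG1 had 0.32 without control tumour 2, -0.0019 without control tumour 3 and 0.09 without IR-A tumour 1.

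The effectors of mTORC1 had 2 higher and 6 lower of 20 at an unadjusted p under 0.05, with a median of -0.05, against 7.1% higher and 7.03% lower over all probe sets. The count of 6 lower was 4 without control tumour 1 or 3 or without IR-A tumour 1. It was 5 without IR-A tumour 2 or 3 and with the replicate number as a block. The median was 0.05 without IR-A tumour 3. EIF4EBP1, the repressor of translation that mTORC1 inactivates, read 9.67, 9.10 and 9.24 in control and 8.26, 8.33 and 8.62 in IR-A tumours. Every IR-A value lay below every control value, and the difference was -0.93 (SE 0.18) or 0.524-fold, with a limma adjusted p of 0.147. RPS6, the ribosomal protein phosphorylated downstream of mTORC1, read 10.94, 10.77 and 11.01 in control and 10.39, 10.44 and 10.59 in IR-A tumours (difference -0.43, SE 0.11, limma adjusted p = 0.183). MAF1, a repressor of RNA polymerase III, had -0.50 (SE 0.13, limma adjusted p = 0.1999). All 3, picked for their small p, separated the groups without passing the test. Over the list the groups did not overlap in 2 higher and 6 lower of 20, against 7.73% higher and 9.45% lower over all probe sets.

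Further effectors are named after their values were seen. The other lower ones were the kinase RPS6KB2 (-0.39), the translation factor EIF4B (-0.38) and the cap-binding protein EIF4E (-0.43). The 2 higher ones were PDCD4, an inhibitor of translation initiation (0.94), and GRB10, an adaptor that restrains the insulin receptor (0.34). PDCD4 read 7.85, 8.73 and 8.86 in control and 9.61, 9.42 and 9.24 in IR-A tumours, with control tumour 1 far below the others. RPS6KB1, the relative of RPS6KB2, had 0.09 and an adjusted p of 0.869 in limma. RPS6 belongs to the ribosomal proteins, which have many processed pseudogenes, so its probe set is uncertain in the same way as that of PDPK1.

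The list of amino acid sensing by the Rag GTPases had 4 higher and 1 lower of 28 at an unadjusted p under 0.05 (median -0.0092), against 7.1% higher and 7.03% lower over all probe sets. SESN3, a stress protein that restrains mTORC1, read 7.33, 7.36 and 6.69 in control and 8.0, 7.84 and 8.01 in IR-A tumours (difference 0.82, SE 0.19, limma adjusted p = 0.171). SEH1L, a subunit of the complex that SESN proteins bind and also of the nuclear pore, had -0.54 (SE 0.16), and RRAGD, a Rag GTPase, 0.53 (SE 0.19), or 0.33 without IR-A tumour 2. The other higher genes, named after their values were seen, were SESN1 (0.96) and the Rag GTPase RRAGC (0.49). The count of 4 higher was 1 without control tumour 1, and 2 without IR-A tumour 1 or 2. The count of 1 lower was 2 without control tumour 2 or 3, with quantile normalization and without the dimmest 50% of probe sets.

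**Figure D5:**
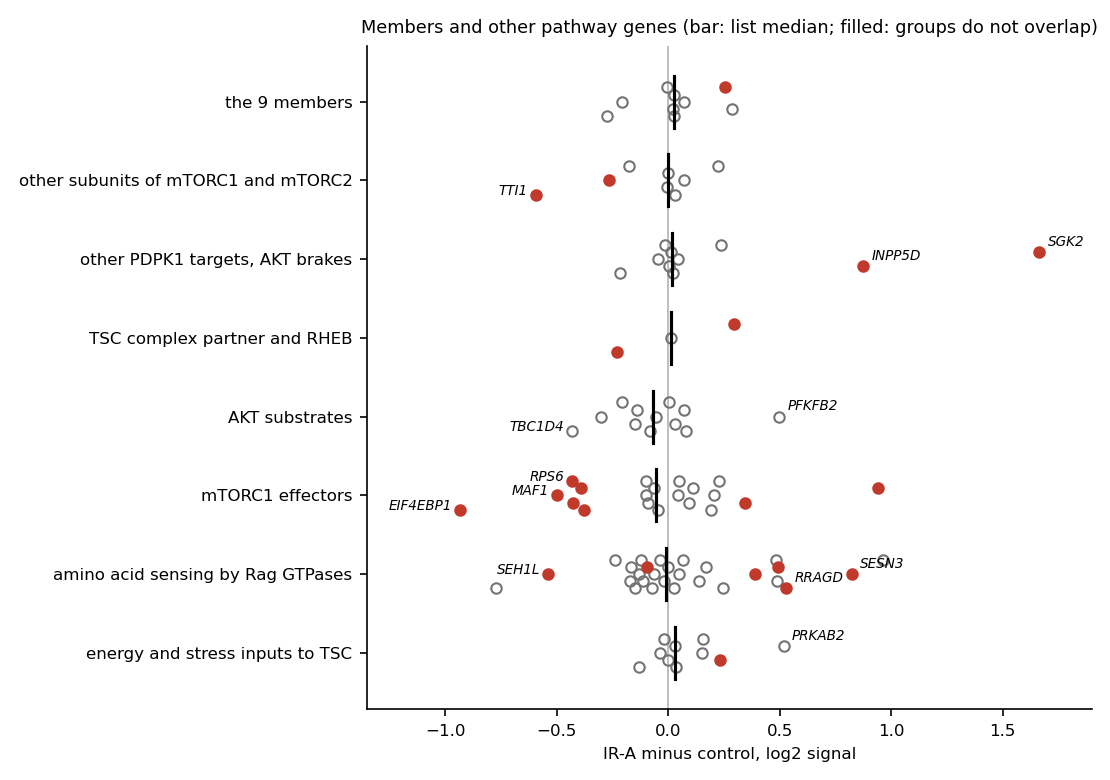
Difference between IR-A and control tumours (horizontal axis, log2 signal) of the 9 genes and of the 91 other genes in 7 lists, 1 point per gene. Black bars are list medians, all between -0.07 and 0.03. Filled red points are genes whose groups did not overlap. SGK2 at 1.66 lies farthest above 0 and EIF4EBP1 at -0.93 farthest below.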

How the data were processed

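The deposited table holds log2 signals for every probe set. The submitters' processing notes name RMA and Partek but give no versions or order. Scanner files were not used here. The makeup of probe sets and the genome build were not given in the sources used here. That the scale is log2 was inferred from the range of the values. Per the labels' protocols, 500 ng of Trizol-extracted RNA per tumour was labelled. RMA compresses differences of dim probe sets.

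Probe sets were named through GEO's probe annotation (23934 of 24726, 792 unnamed), keeping the brightest per gene. No pair of arrays shared over 4.15% of values. All 6 arrays were fitted with limma 3.58.1 in R 4.3.3 (lmFit, eBayes, no trend, no filter), 3 IR-A against 3 control, and p-values were adjusted by Benjamini-Hochberg across the whole table. Single values were also tested by exact two-sided permutation. In 10 simulations of this comparison with 24726 probe sets each, the fit recovered 62.1% of differences of 1 and 92.5% of differences of 2. The simulated noise was independent between arrays and probe sets, with no array set apart as control tumour 2 was. These shares therefore need not hold for the real tumours, where INSR, at 2.95, had a limma adjusted p of 0.0769. The members and lists were chosen with earlier results of these data known. Named were all 9 genes, INSR, the 3 genes of smallest p per list and the 3 nearest genes to each of 2 members. Alternatives were quantile normalization, median centring, dim filters (25% and 50%), intensity trend, robust moderation, array weights, a replicate block, and the fit without each tumour in turn. Figures were drawn with matplotlib 3.10.9.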

Additional observations from a re-analysis of the deposited data

How the results depend on the processing

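Of the 9 genes, 0 passed the adjusted threshold in limma in any of the 14 settings run, and at an unadjusted p under 0.05 the count was 0 to 1 over left-out tumours (RPTOR without IR-A tumour 2, unadjusted p = 0.0392) and 0 in the other 8 settings. PDPK1, MTOR, RPTOR and RICTOR kept their sign in all 14 settings. The genes with differences near 0 did not. With quantile normalization AKT1 was -0.0094, AKT2 -0.012, TSC1 -0.0051, AKT2 minus AKT1 -0.0024 and TBC1D7 -0.032. With array weights AKT1 was -0.020 and DEPTOR -0.073, and with median centring TSC2 was 0.012. Over left-out tumours AKT1 ran from -0.054 to 0.13, AKT2 from -0.0030 to 0.050, TSC1 from -0.15 to 0.22, TSC2 from -0.075 to 0.053, DEPTOR from -0.34 to 0.46, TBC1D7 from -0.11 to 0.24, PRKAG1 from -0.0019 to 0.32, AKT2 minus AKT1 from -0.091 to 0.094 and TSC1 minus TSC2 from -0.14 to 0.25. RICTOR minus RPTOR ran from 0.40 to 0.70. With 3 against 2 tumours the smallest exact permutation p is 0.2, so these say nothing of its call.

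INSR passed with either dim filter (25%, 2.95, and 50%, 2.95) and under array weights (2.87), and ran from 2.74 to 3.17 over left-out tumours, passing in the fit lacking control tumour 2. The count of all probe sets past the adjusted threshold was 14 and 20 under the dim filters, where fewer were tested, and 11 with array weights. Over left-out tumours it was 308 without control tumour 2 and 0 in every other such fit. At an unadjusted p under 0.05 the count ran from 2156 to 5206. Apart from SGK2 without control tumour 2, no gene of the 7 lists was called in any setting; these counts were run by list after seeing the data. Whether the replicate numbers pair the tumours is not stated. Deviations from the group means correlated at -0.294, -0.358 and 0.0203 between same-numbered tumours, and at -0.321 to 0.504 between differently numbered ones. With 3 tumours per group these correlations constrain each other, so they cannot decide it. With the replicate block PDPK1 had an adjusted p of 0.587 in limma and RICTOR 0.512, and 0 probe sets were called. The number of arrays limits the precision and probe sets carry no measure of their background here.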
